A study of Homo sapiens with 15 samples.

Results

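IGFL1, IGFL2, IGFBP2, IGFBP3, IGFBP4, IGFBP5, IGFBP6, IGFBP7 and IGF1R, 9 of the 61544 genes in a deposited count table, were followed through knockdown of 4 transcription factors in HCC95 cells. They were taken by gene name, and they were chosen with results of the same libraries in view. In particular, IGFL1 was selected on its log2 fold change (log2FC) in siKLF5b against siNC1, the lowest of any gene whose counts averaged 100 or more. That average was taken over all 15 libraries. IGFL1 reached it only through siTP63b, siSOX2b and siGRHL2a, with 1028, 2973 and 3189 counts summed per group. In the groups compared it had 72 counts (siNC1) and 9 counts (siKLF5b). Levels and differences of the 9 genes are therefore given as a description, with no p-value, and support nothing about these genes beyond the libraries measured. All 9 genes passed the filter on low counts, as did 25108 genes in all.

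The insulin-like growth factors IGF1 and IGF2 are secreted peptides that bind IGF1R, a receptor tyrosine kinase, which signals through the IRS adaptors to PI3K and AKT. IGF-binding proteins are secreted carriers that hold the peptides away from the receptor, and proteases that cut the carriers release them. IGFBP7 binds the peptides only weakly. IGFL1 and IGFL2 belong to a small family of secreted, cysteine-rich IGF-like proteins, and IGFL1 is a ligand of the receptor IGFLR1 rather than of IGF1R.

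HCC95 is an established cell line from a human lung squamous cell carcinoma (LUSC). TP63, SOX2, KLF5 and GRHL2 encode transcription factors of squamous and other epithelial cells. Cells of this line were transfected with the siRNA siTP63b, siSOX2b, siKLF5b or siGRHL2a, or with a negative control named siNC1 in the labels, and poly(A)+ RNA was sequenced. Each of the 5 groups had 3 libraries, and each factor was targeted here by a single siRNA in a single line. The labels number the replicates without saying whether they were separate cultures, so the spread and the p-values below measure the difference between these libraries, which may be technical.

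Column names of the table part the libraries into the 6 of siNC1 and siKLF5b and the 9 of siTP63b, siSOX2b and siGRHL2a. Counts summed to 15655495 to 24845273 per library in the former set and to 22255856 to 34229063 in the latter. Even numbers made up 49.7% to 50.7% of counts between 20 and 500 in the former and 66.1% to 69% in the latter. Differences across the sets cannot be told apart from this difference between the sets, so siKLF5b was compared with siNC1, and siTP63b, siSOX2b and siGRHL2a with each other. Within a set, KLF5 was lower in siKLF5b than in siNC1 with a log2FC of -0.64 (adjusted p = 5.3e-10), by edgeR's quasi-likelihood test after Benjamini-Hochberg adjustment over all genes tested, and stood at 107 to 123 CPM in siNC1 and 71.8 to 73.8 CPM in siKLF5b (counts per 1000000 of the TMM-scaled library size). TP63 was lower in siTP63b than in siSOX2b (log2FC -0.93, edgeR adjusted p = 3.2e-15) or siGRHL2a (-1.19, edgeR adjusted p = 1.9e-17). SOX2 was lower in siSOX2b than in siGRHL2a (log2FC -1.18, edgeR adjusted p = 1.2e-10) or siTP63b, which had a log2FC of 1.73 against siSOX2b (edgeR adjusted p = 3.8e-15). GRHL2 was 91.3 ± 0.56 CPM in siGRHL2a, 100.2 ± 4.58 CPM in siSOX2b and 117.3 ± 2.39 CPM in siTP63b (SD, n = 3), so its level in its own knockdown was close to that in siSOX2b, with a log2FC of 0.14 in siSOX2b against siGRHL2a (edgeR adjusted p = 0.031). Against siNC1, across the sets and so as a description, the log2FC was -0.91 for TP63 in siTP63b, -3.04 for SOX2 in siSOX2b and -0.56 for GRHL2 in siGRHL2a, and GRHL2 also had -0.43 in siSOX2b and -0.20 in siTP63b. SOX2 was not low in siSOX2b alone, since it stood at 8.97 ± 1.63 CPM there, while the level was 20.2 ± 1.54 CPM in siGRHL2a, 29.6 ± 2.23 CPM in siTP63b and 73.3 ± 7.15 CPM in siNC1. All 8 squamous epithelial markers exceeded 1 CPM in every group, but their summed level differed between groups, as given beside IGFL1 below.

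IGFL1 (ENSG00000188293.6) lies on the plus strand of chromosome 19 at 46229742 to 46231243 (hg38) and has 4 exons. IGFBP3 (ENSG00000146674.16) lies on the minus strand of chromosome 7 at 45912245 to 45921874 and has 5 exons in its canonical transcript. The promoters of these genes are shown because these had the largest log2FC within a column set of the 2 IGF-like genes and of the 6 binding proteins, and no link between promoter letters and those differences was tested. RefSeq (GRCh38.p14) gave a promoter for 8 of the 9 genes, 10 promoters in all, each reaching from 250 bases before to 50 bases after the start. The stretches of 250 bases before the start are printed 5′ to 3′ on the strand of the gene, with matches to 4 short motifs in capitals. They are chr19:46229492-46229741 for IGFL1 and chr7:45921273-45921522 for IGFBP3, whose RefSeq start lies 602 bases inside the end of the gene in the count table.
IGFL1: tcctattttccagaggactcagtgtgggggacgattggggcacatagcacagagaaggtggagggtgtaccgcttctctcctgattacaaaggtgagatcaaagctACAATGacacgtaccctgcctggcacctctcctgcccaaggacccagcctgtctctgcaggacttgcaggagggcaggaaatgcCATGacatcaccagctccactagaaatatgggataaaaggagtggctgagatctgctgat
IGFBP3: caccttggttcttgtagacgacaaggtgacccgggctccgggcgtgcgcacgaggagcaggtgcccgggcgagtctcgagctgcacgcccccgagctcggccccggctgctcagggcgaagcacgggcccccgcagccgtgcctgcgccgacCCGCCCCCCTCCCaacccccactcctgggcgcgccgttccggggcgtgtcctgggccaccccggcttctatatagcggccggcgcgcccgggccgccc

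The motifs were searched on both strands of the whole windows, and a GRHL match whose middle bases are A and T also holds the letters CATG. CATG, the core of a p63 half-site, matched the IGFL1 promoter 60 bases before and 32 bases after the start, and it occurred in 54.9% of the 35116 RefSeq promoters. CATTGT, a SOX2 motif, matched the IGFL1 promoter 144 bases before the start on the minus strand, and it occurred in 10.8% of promoters. CCNCNCCC, a KLF motif found in 56.2% of promoters, had 0 matches in the IGFL1 window and 2 overlapping matches in that of IGFBP3, 98 and 93 bases before the start. The same motif matched the IGFBP4 window 6 times, those of IGFBP5, IGFBP6, IGF1R and IGFL2 5, 4, 2 and 1 times, and 2 of the 3 IGFBP2 windows. AACNNGTT, a GRHL motif found in 3.52% of promoters, had 0 matches in all 10 windows. A match is a string of letters and no evidence of binding.

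IGFL1 was low in siNC1 and lower still in siKLF5b, and among the other 3 knockdowns it was lower in siTP63b than in siSOX2b and siGRHL2a. In siNC1 its level was 1.15, 1.04 and 1.13 CPM in the 3 libraries, scaled with TMM factors, from 26, 19 and 27 counts. In siKLF5b it was 0.183, 0.123 and 0.127 CPM, from 4, 3 and 2 counts. The groups did not overlap, and the log2FC was -2.90 ± 0.351 (SE). The summed counts of 72 and 9 gave a level 7.66-fold higher in siNC1, with an exact 95% interval of 3.82 to 17.4 that covers counting error only. At this depth counting error alone leaves the size of the difference open over that range, and spread between libraries is not in it. IGFL1 was also selected on this same log2FC, which the interval does not allow for. Without siKLF5b replicate 1 the log2FC was -3.12, and without siKLF5b replicate 2 it was -2.77.

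In siTP63b IGFL1 stood at 10.8, 10.6 and 13.6 CPM. It stood at 34.7, 32.2 and 34.4 CPM in siSOX2b and at 30.95, 32.9 and 31.5 CPM in siGRHL2a. Every siTP63b library was below every library of the other 2 knockdowns, which overlapped each other. The log2FC was -1.53 ± 0.0896 in siTP63b against siSOX2b and -1.44 ± 0.0892 against siGRHL2a, and 0.09 ± 0.0833 in siSOX2b against siGRHL2a. Against siNC1 the log2FC was 3.39 in siTP63b, 4.91 in siSOX2b and 4.83 in siGRHL2a, with all 3 comparisons sharing the siNC1 libraries and crossing the column sets, so that the set and the knockdown cannot be told apart.

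The summed level of the squamous epithelial markers, which include KRT5, TP63, SOX2, DSG3 and KRT6A, was lower where IGFL1 was lowest within each set. The 8 genes summed to 9460 to 10900 CPM in siNC1 and 5930 to 6920 CPM in siKLF5b. They summed to 6140 to 7120 CPM in siTP63b, 8480 to 9380 CPM in siSOX2b and 10900 to 11200 CPM in siGRHL2a. The sums were thus lower in siKLF5b than in siNC1 and lowest in siTP63b of the other 3 knockdowns, in each case without overlap. The sums of siSOX2b and siGRHL2a, whose IGFL1 levels overlapped, were apart. KRT5 made most of each sum, and its mean fell from 8633 CPM (siNC1) to 5363 CPM (siKLF5b). SOX2 and DSG3 instead had higher means in siKLF5b (106.9 and 133.6 CPM) than in siNC1 (73.3 and 115.7 CPM). The remaining markers had lower means in siKLF5b. Among the other 3 knockdowns, SOX2 was highest with siTP63b, and every other marker, among them the targeted TP63, had its lowest mean there. The part of these markers in the differences of IGFL1 was not tested.

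The counting gave reads in overlapping genes to each of them. Among genes lying wholly within another gene, the outer gene had at least as many counts in 65996 of 65996 pairs of gene and library with 20 or more counts. Pairs were taken whatever their strands. Counting by strand would not hold the outer gene to as many counts as an inner gene on the opposite strand. The strand setting itself is not given in the sources used here. An antisense lncRNA, ENSG00000269745, overlaps IGFL1 over 647 bases and had 24.3% as many counts. Its level was 0.299, 0.0866, 2.76, 8.28 and 7.68 CPM in siNC1, siKLF5b, siTP63b, siSOX2b and siGRHL2a, in the order of the IGFL1 levels. Reads in the overlap of these genes cannot be told apart. None of the 680 stretches of 100 bases in the IGFL1 transcript occurred in a transcript of another gene, and the same held for the canonical transcripts of the other 8 members.

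**Figure D1:**
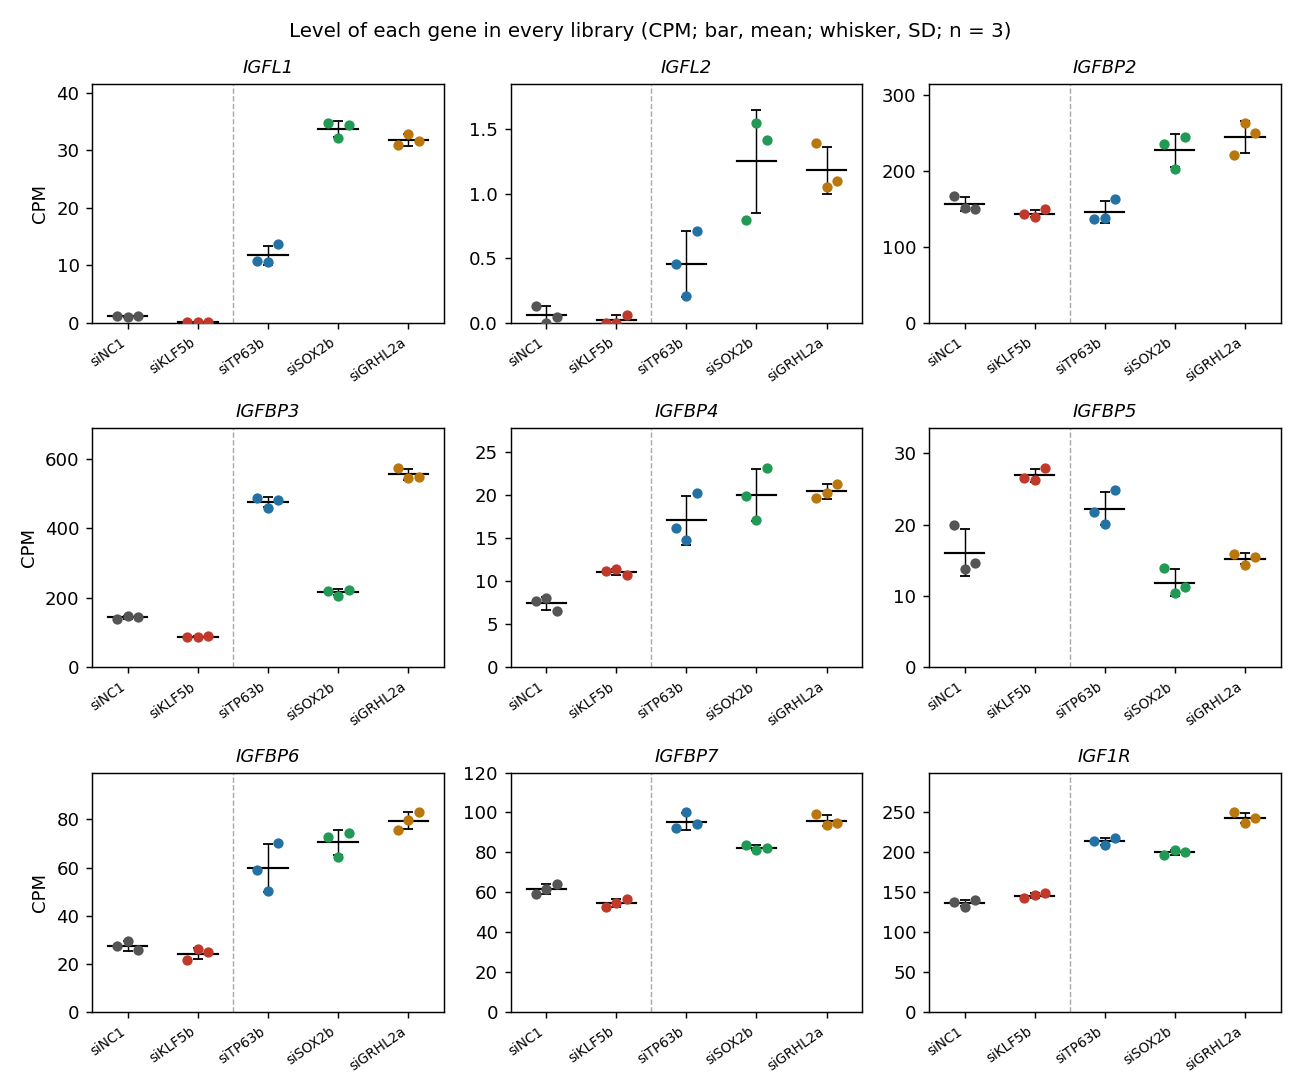
CPM (y axis, linear, from 0) of each of the 9 genes in every library, by group (x axis), with the mean as a bar and the SD as a whisker (n = 3). The dashed line parts the 2 column sets. IGFL1 lies near 0 in siNC1 and siKLF5b and is lower in siTP63b than in siSOX2b and siGRHL2a, whereas IGFBP3 is lowest in siKLF5b and, to the right of the line, in siSOX2b.

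The 5 genes whose pattern was most like that of IGFL1 were TNFRSF21, a death-domain receptor, ATP1B1, a subunit of the sodium pump, the keratins KRT6A and KRT17 of stressed or activated squamous epithelium, and BMP7, a ligand of the BMP family. Likeness was Pearson's r of log2 CPM over the 15 libraries after the mean of each column set was subtracted, among 15338 genes averaging 100 or more counts. It was 0.989 for TNFRSF21, 0.966 for ATP1B1, 0.962 for KRT6A, 0.96 for KRT17 and 0.958 for BMP7. These libraries share group, column set and depth, so r is a description. Without the subtraction r was 0.998 for TNFRSF21, 0.983 for KRT6A and 0.865 for KRT17, but -0.194 for ATP1B1 and -0.274 for BMP7, which did not share the higher level of IGFL1 in the second set. KRT17 stood at 628 ± 38 CPM in siNC1 and 228 ± 18.2 CPM in siKLF5b. In the other set it stood at 490.4 ± 76.1 CPM with siTP63b, at 1100 ± 115 CPM with siSOX2b and at 1271 ± 68.4 CPM with siGRHL2a. TNFRSF21 moved over a narrower range, from 55.6 ± 1.98 CPM in siKLF5b to 214 ± 4.5 CPM in siSOX2b.

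**Figure D2:**
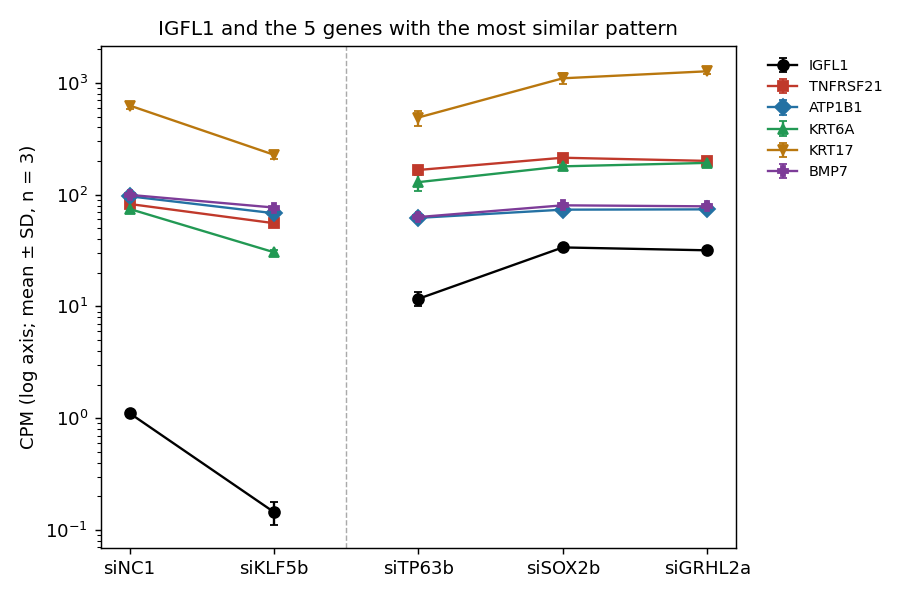
Mean CPM (log axis, whisker SD, n = 3) of IGFL1 and the 5 genes with the most similar pattern, by group (x axis), with a dashed line between the column sets. Within each set all 6 genes are lower in siKLF5b than in siNC1 and lowest in siTP63b, but ATP1B1 and BMP7 lack the step up of IGFL1 between the sets.

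IGFL2, another IGF-like ligand gene on chromosome 19 (46143106 to 46161298, plus strand), was scarce. It lies 68.4 kb from IGFL1, with 5 genes between them. It had 3, 0 and 1 counts in siNC1 and 0, 0 and 1 in siKLF5b, at or under a floor of 3 counts per library, so no fold is given. It had 14, 6 and 20 counts in siTP63b (0.457, 0.204 and 0.712 CPM), 26, 51 and 32 in siSOX2b (0.795, 1.55 and 1.42 CPM) and 48, 35 and 36 in siGRHL2a (1.39, 1.06 and 1.10 CPM). As for IGFL1, the siTP63b libraries lay below those of the other 2 knockdowns without overlap, with a log2FC of -1.44 ± 0.426 against siSOX2b and -1.37 ± 0.423 against siGRHL2a. IGFL2 lies wholly within the lncRNA ENSG00000267922 on the same strand, which had 4540% as many counts and another order of levels, 13.4, 7.96, 47.5, 29.9 and 42.2 CPM in siNC1, siKLF5b, siTP63b, siSOX2b and siGRHL2a.

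IGFBP3, the main carrier of IGFs in serum, was low in siKLF5b and siSOX2b beside the groups each was compared with. It stood at 138, 147 and 145 CPM in siNC1 and at 86.7, 87.2 and 90.1 CPM in siKLF5b, a log2FC of -0.71 ± 0.0485 between groups that did not overlap. In siSOX2b it stood at 219, 206 and 221 CPM, less than any library of siTP63b (486.5, 458 and 480.4 CPM) or siGRHL2a (573, 544.5 and 547 CPM). The log2FC was 1.14 ± 0.0457 in siTP63b against siSOX2b and -1.37 ± 0.0459 in siSOX2b against siGRHL2a. Between siTP63b and siGRHL2a it was -0.22 ± 0.0447, again without overlap. IGFL1 and IGFBP3 thus took different orders, as IGFL1 was lowest in siTP63b and IGFBP3 in siSOX2b among these 3 groups, and their r over the 15 libraries with the set means subtracted was 0.142.

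IGFBP2 and IGFBP5 are neighbours on chromosome 2 that point towards each other, IGFBP2 at 216632828 to 216664436 on the plus strand and IGFBP5 at 216672105 to 216695549 on the minus strand. They lie 7.67 kb apart with 0 genes between them. IGFBP2, a carrier with a preference for IGF2, stood at 136, 138 and 163 CPM in siTP63b, below all libraries of siSOX2b (234.5, 202 and 244 CPM) and siGRHL2a (221, 262 and 250 CPM), which overlapped each other. Its log2FC was -0.64 ± 0.0682 in siTP63b against siSOX2b and -0.75 ± 0.068 against siGRHL2a. In siKLF5b it was close to siNC1 and only just apart from it, with 142.5, 139 and 149 CPM against 167, 151.5 and 149.8 CPM and a log2FC of -0.12 ± 0.0698.

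IGFBP5, a carrier that also binds the extracellular matrix, was ordered otherwise. It was higher in siKLF5b (26.6, 26.2 and 27.9 CPM) than in siNC1 (19.9, 13.7 and 14.6 CPM), with a log2FC of 0.74 ± 0.114 that was 0.92 without siNC1 replicate 1, the highest siNC1 library. It was also higher in siTP63b (21.8, 20.1 and 24.8 CPM) than in siSOX2b (13.9, 10.4 and 11.2 CPM) or siGRHL2a (15.9, 14.35 and 15.4 CPM), with a log2FC of 0.90 ± 0.113 and 0.55 ± 0.11. All these groups were apart. Reads of IGFBP2 outnumbered those of IGFBP5 by a ratio of 9.9 ± 1.37 in siNC1 and 5.34 ± 0.0256 in siKLF5b, and by 6.55 ± 0.313, 19.3 ± 2.44 and 16.1 ± 2.18 in siTP63b, siSOX2b and siGRHL2a (SD, n = 3). The ratios in siKLF5b and siTP63b, from 5.31 to 6.86, were below every other library, of which the lowest had 8.39. DIRC3-AS1 overlaps IGFBP5 on the opposite strand and had 15.6% as many counts.

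IGFBP4, a carrier cut by the protease PAPPA (chromosome 17, 40443450 to 40457725, plus strand), stood at 7.76, 8.01 and 6.54 CPM in siNC1 and at 11.2, 11.4 and 10.7 CPM in siKLF5b, a log2FC of 0.58 ± 0.128 without overlap. Among the other 3 knockdowns its means were 20.5 ± 0.848 CPM in siGRHL2a, 20.1 ± 3.04 CPM in siSOX2b and 17.1 ± 2.87 CPM in siTP63b, and all these groups overlapped. IGFBP6, which prefers IGF2 (chromosome 12, 53097436 to 53102345, plus strand), overlapped between siKLF5b (24.1 ± 2.35 CPM) and siNC1 (27.4 ± 1.9 CPM) and between siTP63b (59.9 ± 10 CPM) and siSOX2b (70.4 ± 5.15 CPM), and was highest in siGRHL2a, at 79.4 ± 3.6 CPM. Its log2FC in siTP63b against siGRHL2a was -0.41.

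IGFBP7 (chromosome 4, 57030773 to 57110385, minus strand) was slightly lower in siKLF5b (52.6, 54.7 and 56.7 CPM) than in siNC1 (59, 61.4 and 64.3 CPM), and lower in siSOX2b (83.9, 81.2 and 82.04 CPM) than in siTP63b (92, 100 and 94.2 CPM) or siGRHL2a (99.1, 93.9 and 94.9 CPM). In both cases it was the groups with less IGFBP3 that had less IGFBP7, and r between these genes over the 15 libraries, with the set means subtracted, was 0.908. The differences of IGFBP7 were small beside those of IGFBP3, with a log2FC of -0.17 in siKLF5b against siNC1 and -0.22 in siSOX2b against siGRHL2a. IGFBP7 overlaps POLR2B, which had 188% as many counts, over 386 bases, and the antisense gene IGFBP7-AS1 had 20.2% as many.

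IGF1R, the receptor (chromosome 15, 98648539 to 98964530, plus strand), differed little within a column set. It stood at 138, 132 and 139.5 CPM in siNC1 and at 142, 146 and 148 CPM in siKLF5b. It stood at 249.6, 236 and 242 CPM in siGRHL2a, at 213.5, 209 and 217 CPM in siTP63b and at 196, 203 and 200.3 CPM in siSOX2b. The groups of each within-set comparison were apart, yet the log2FC was only 0.09 in siKLF5b against siNC1 and -0.28 in siSOX2b against siGRHL2a. SYNM-AS1, on the opposite strand, had 46.7% as many counts as IGF1R, and its level, 64.8, 73.8, 96.8, 91.6 and 112 CPM in siNC1, siKLF5b, siTP63b, siSOX2b and siGRHL2a, took the same order.

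The study's thresholds were an adjusted p under 0.05 together with a log2FC beyond 0.75 in size. Past them there was 1 of 9 members lower in siKLF5b against siNC1, IGFL1, and 0 higher, where 1.37% of all genes tested were lower and 1.89% higher. In siTP63b against siSOX2b there were 2 lower, IGFL1 and IGFL2, and 2 higher, IGFBP3 and IGFBP5, against 2.82% and 3.88% of all genes. In siTP63b against siGRHL2a there were 2 lower, IGFL1 and IGFL2, and 0 higher, against 3.21% and 2.18%. In siSOX2b against siGRHL2a there was 1 lower, IGFBP3, and 0 higher, against 2.27% and 1.05%. Groups did not overlap for 7, 7, 7 and 5 of the 9 members in these comparisons, where they did not overlap for 42.5%, 38.3%, 35.6% and 35.2% of all genes. As the genes were chosen with such results known, nothing is read from these counts. The median log2FC of the members was -0.17, -0.22, -0.26 and -0.17, and that of all genes tested -0.0097, 6e-04, -0.009 and -0.0184. The first of the member medians includes the fitted value of IGFL2, whose counts there were at or under the floor.

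Some members lay close to a threshold. IGFBP5 in siKLF5b against siNC1, with a log2FC of 0.7369, and IGFBP2 in siTP63b against siGRHL2a, with -0.7491, fell just short of the limit of 0.75, and IGFBP5 passed it without siNC1 replicate 1 (0.92) or siKLF5b replicate 2 (0.7513). IGFBP2 passed it without siGRHL2a replicate 1 (-0.81) or siTP63b replicate 3 (-0.83). IGFL2 was no longer past the thresholds without siTP63b replicate 2 in either of its comparisons, without siSOX2b replicate 2 against siSOX2b, and without siGRHL2a replicate 1 against siGRHL2a.

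**Figure D3:**
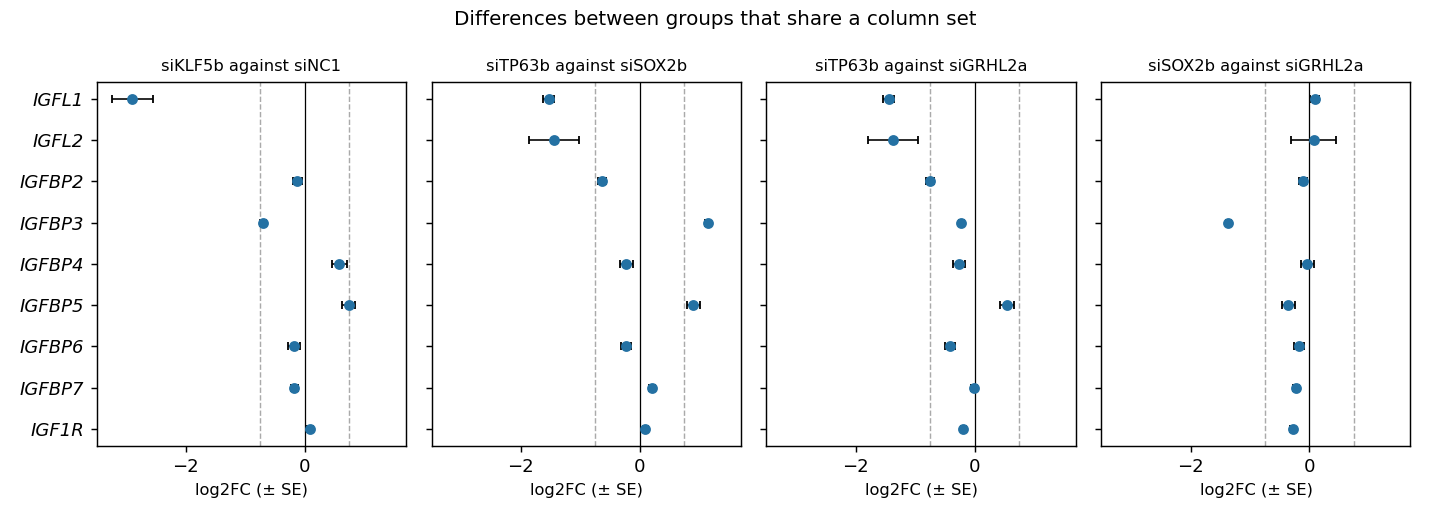
log2FC (x axis, point) with its SE (whisker) of each member in the 4 comparisons within a column set, from the edgeR fit of the 15 libraries, with dashed lines at an absolute log2FC of 0.75. IGFL1 lies at -2.90, -1.53, -1.44 and 0.09 from left to right and IGFBP3 at -0.71, 1.14, -0.22 and -1.37, and IGFL2 is not drawn in the first panel because its counts were at or under the floor.

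Against siNC1 the other 3 knockdowns had higher fitted levels of IGFBP3 (log2FC 1.73, 0.58 and 1.95 in siTP63b, siSOX2b and siGRHL2a), IGFBP4 (1.205, 1.43 and 1.46), IGFBP6 (1.13, 1.37 and 1.54), IGFBP7 (0.63, 0.42 and 0.64) and IGF1R (0.64, 0.55 and 0.83). IGFBP2 had -0.10, 0.54 and 0.65, and IGFBP5 had 0.46, -0.44 and -0.08. These comparisons share the siNC1 libraries and cross the column sets, so the values may hold the set as well as the knockdown.

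Levels were compared between genes as CPM per kb of merged exons in Gencode release 44, although the counts cover the whole span of a gene, introns included. On this scale IGFBP2 (32.9 ± 1.99), IGFBP7 (31.9 ± 1.37) and IGFBP3 (31.4 ± 1.02) were highest in siNC1 and did not differ beyond their SD, followed by IGFBP6 (20.3 ± 1.41), IGF1R (9.79 ± 0.294), IGFBP4 (3.37 ± 0.356), IGFBP5 (2.49 ± 0.518), IGFL1 (1.42 ± 0.0748) and IGFL2 (0.024 ± 0.028). In siKLF5b the same genes were highest, IGFBP2 with 30.3 ± 1.06, IGFBP7 with 28.3 ± 1.05 and IGFBP3 with 19.3 ± 0.403. IGFBP3 led in siTP63b (104 ± 3.31) and siGRHL2a (121 ± 3.44), where the next genes were IGFBP7 with 49.4 ± 2.14 and IGFBP6 with 59 ± 2.67. In siSOX2b the range was narrow, with IGFBP6 at 52.3 ± 3.83, IGFBP2 at 47.8 ± 4.63, IGFBP3 at 47.1 ± 1.85, IGFL1 at 43.3 ± 1.74 and IGFBP7 at 42.7 ± 0.707, where only IGFBP3 and IGFL1 lay next to each other at a distance above both SDs. Per kb of the whole span in place of the exons, IGFBP3 ranked first in siNC1 and IGFL1 took rank 5, so the order rests on the length used.

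The 6 IGF-binding proteins together made 122 ± 1.41 CPM per kb of exon in siNC1 and 105 ± 3.3 in siKLF5b. The sums were 240 ± 12.7 in siTP63b, 201 ± 12.2 in siSOX2b and 293 ± 2.12 in siGRHL2a. IGFBP3 made 25.7% ± 0.906 of the sum in siNC1 and 18.4% ± 0.304 in siKLF5b, and 43.4% ± 1.74, 23.5% ± 0.515 and 41.4% ± 1.46 in siTP63b, siSOX2b and siGRHL2a. IGFBP2 made 12.8% ± 0.73 in siTP63b, less than in any library of the other groups, of which siGRHL2a was next with 17.6% ± 1.41. IGFBP5 made at most 4.05% in any library. The shares rest on the length used. As shares of reads, with no length taken into account, IGFBP5 made up to 7.79%, and IGFBP3 made 34.9% ± 1.61 in siNC1, 25.3% ± 0.164 in siKLF5b, 58.3% ± 1.82 in siTP63b, 34.4% ± 0.886 in siSOX2b and 54.9% ± 1.84 in siGRHL2a, so that IGFBP3 was again lower in siKLF5b than in siNC1 and lower in siSOX2b than in the other 2 knockdowns of its set. In these bulk samples fewer cells of a type and less RNA per cell cannot be told apart.

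**Figure D4:**
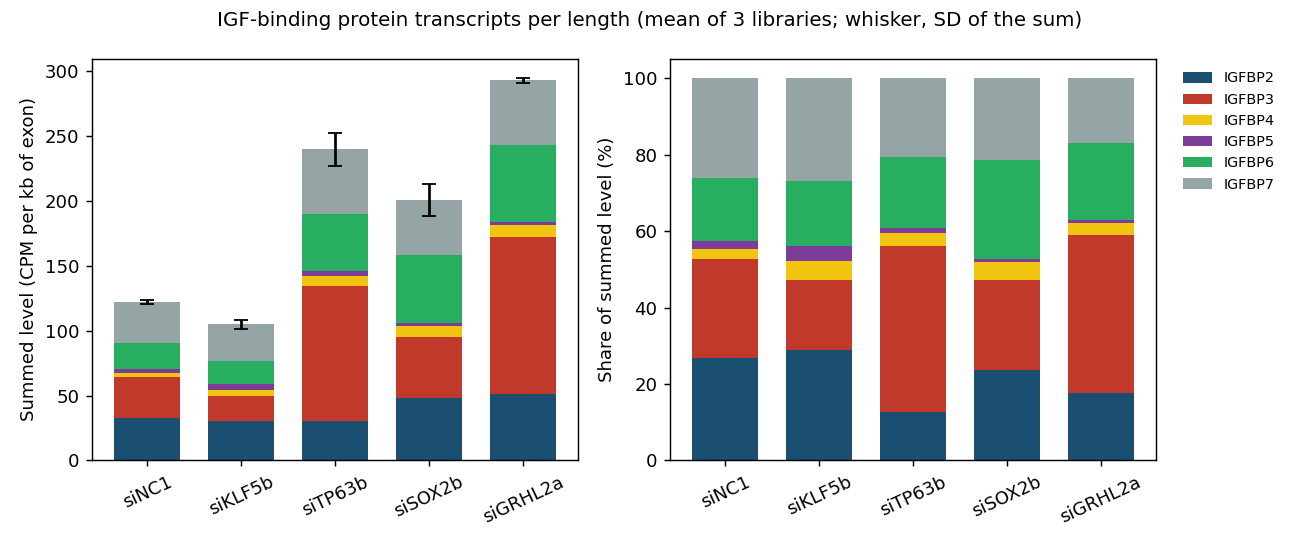
Summed level of IGFBP2 to IGFBP7 in CPM per kb of merged exons (left, y axis from 0, whisker SD of the sum, n = 3) and the share of each gene in that sum in percent (right), by group (x axis). IGFBP3 makes 43.4% and 41.4% in siTP63b and siGRHL2a and 18.4% to 25.7% in the other groups.

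IGF-binding proteins are also made by fibroblasts. Of 8 fibroblast markers, 3 exceeded 1 CPM in every group, THY1, COL1A1 and PDGFRB. The 8 markers summed to 50.7 to 61 CPM in siNC1, 24.2 to 39.5 CPM in siKLF5b, 62.5 to 67.6 CPM in siGRHL2a, 56.7 to 71.3 CPM in siSOX2b and 47.9 to 59.1 CPM in siTP63b. These sums moved with IGFBP3 in siKLF5b against siNC1 but not in siSOX2b against siTP63b, and their part in the result was not tested. THY1 made most of each sum, with means from 29.5 CPM in siKLF5b to 57.3 CPM in siGRHL2a. COL1A1 had means from 2.12 CPM in siKLF5b to 5.22 CPM in siSOX2b. DCN and LUM had at most 3 and 7 counts summed over the 3 libraries of a group.

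Of the 6 immune markers, 2 or 3 exceeded 1 CPM in a group, and 1 of the 6 endothelial markers and 1 of the 6 of lung adenocarcinoma and alveolar cells did. The immune markers summed to 90.6 to 95.5 CPM in siNC1, 76 to 87.2 CPM in siKLF5b, 47.5 to 52.7 CPM in siTP63b, 59.9 to 63.7 CPM in siSOX2b and 58.8 to 67.7 CPM in siGRHL2a. The endothelial markers summed to 15 to 15.8 CPM in siNC1, 11.5 to 13.6 CPM in siKLF5b, 5.91 to 7.9 CPM in siTP63b, 3.7 to 5.13 CPM in siSOX2b and 6.03 to 8.18 CPM in siGRHL2a. The markers of lung adenocarcinoma and alveolar cells summed to at most 3.05 CPM in siNC1 and siKLF5b and to 5.48 to 11.3 CPM in the other set. The immune sums, like IGFL1, were lower in siKLF5b than in siNC1 and lowest in siTP63b of its set, and the endothelial sums, like IGFBP3, were lower in siKLF5b than in siNC1 and lowest in siSOX2b of its set. CD68 and CSF1R made most of each immune sum. In siKLF5b against siNC1, CD68 was lower (22.6 against 34.4 CPM) but CSF1R was not (58.5 against 58.2 CPM). In the other set both had their lowest mean in siTP63b. VWF made most of each endothelial sum, with means of 14.5 CPM in siNC1, 11.9 CPM in siKLF5b and 3.55 CPM in siSOX2b. The other endothelial markers had means under 1 CPM. The part of either list in those results was not tested.

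The other genes of the pathway were taken from 8 lists of 67 genes, of which 57 could be tested. The ligands of IGF1R were scarce in these cells. IGF2 ranged from 1.01 to 2.66 CPM over the 15 libraries and IGF1 from 0.11 to 0.948 CPM, and INS had 0 counts. The carrier gene IGFBP1, which neighbours IGFBP3, had at most 12 counts in a library. IGFLR1, the receptor of IGFL1, ranged from 0.503 to 1.36 CPM.

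In siKLF5b against siNC1 the pathway had 1 gene lower and 3 genes higher past the thresholds and 53 that did not pass (2 and 3 when adjusted over the list alone). Of all genes tested 1.37% were lower and 1.89% higher, and the median log2FC was -0.11 in the list and -0.0097 over all genes. IGFBPL1, a protein related to the IGF-binding proteins, rose from 6.81 to 12.2 CPM (log2FC 0.84 ± 0.108, edgeR adjusted p = 4.7e-07). PAPPA, the protease that cuts IGFBP4, rose from 1.93 to 3.49 CPM (log2FC 0.86 ± 0.198, edgeR adjusted p = 0.0014). CCN2, a matricellular protein with an IGFBP domain, rose from 1.74 to 3.16 CPM (log2FC 0.85 ± 0.208, edgeR adjusted p = 0.0027), but its log2FC was 0.71 without siNC1 replicate 1 and 0.7482 without siNC1 replicate 2. CCN5, of the same family, fell from 0.973 to 0.426 CPM (log2FC -1.14 ± 0.385, edgeR adjusted p = 0.029), with an adjusted p of 0.11 and 0.097 without siNC1 replicate 2 or 3 and of 0.095 and 0.097 without siKLF5b replicate 2 or 3.

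In siTP63b against siSOX2b there was 1 of the 57 lower and 2 higher (1 and 2 when adjusted over the list alone), where 2.82% and 3.88% of all genes were, and the median log2FC was 0.04 in the list and 6e-04 over all genes. STC1, which encodes a secreted inhibitor of PAPPA, was higher in siTP63b (2.24 CPM) than in siSOX2b (0.992 CPM), with a log2FC of 1.19 ± 0.264 (edgeR adjusted p = 0.00068), and higher than in siGRHL2a (1.12 CPM), with a log2FC of 1.00 ± 0.254 (edgeR adjusted p = 0.0031). It was the only gene of the lists past the thresholds in siTP63b against siGRHL2a, with 0 lower and 1 higher (0 and 1 when adjusted over the list alone), where 3.21% and 2.18% of all genes were, and the median log2FC was 0.05 in the list and -0.009 over all genes. ADAM28, a metalloprotease that cuts IGFBP3, was higher in siTP63b than in siSOX2b, at 10.3 and 6.05 CPM (log2FC 0.77 ± 0.131, edgeR adjusted p = 2.3e-05), but its log2FC was 0.61 without siTP63b replicate 2 and 0.67 without siSOX2b replicate 1.

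IGFL3, another gene of the IGF-like family, had 14, 10 and 2 counts in siTP63b and 24, 30 and 18 in siSOX2b (log2FC -1.46 ± 0.508, edgeR adjusted p = 0.027). Its adjusted p was 0.13 without siTP63b replicate 3, 0.078 and 0.051 without siSOX2b replicate 2 or 3, and 0.077 by DESeq2. In siSOX2b against siGRHL2a there was 1 lower and 1 higher (1 and 1 when adjusted over the list alone), where 2.27% and 1.05% of all genes were, and the median log2FC was -0.02 in the list and -0.0184 over all genes. PIK3R2, a regulatory subunit of PI3K, was lower, at 29.97 against 52.3 CPM (log2FC -0.81 ± 0.0806, edgeR adjusted p = 4.3e-09), and its log2FC was -0.73 without siSOX2b replicate 2. IGF1 was higher, with 31, 24 and 21 counts against 12, 16 and 8 (log2FC 1.26 ± 0.41, edgeR adjusted p = 0.023), but its adjusted p was 0.068 and 0.053 without siSOX2b replicate 1 or 3, 0.06 and 0.097 without siGRHL2a replicate 1 or 3, and 0.051 by DESeq2.

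Among the receptor adaptors 0 of 11 tested genes passed both thresholds in any of the 4 comparisons, where 1.05% to 3.88% of all genes passed in a given comparison and direction. IRS1, IRS2 and IGF2R, a scavenger receptor of IGF2, are given here after their values were seen. Their adjusted p does not allow for that choice. IRS1 stood at 62.8, 58.05 and 65.7 CPM in siTP63b, below all libraries of siSOX2b (99.2, 95.2 and 107 CPM) and siGRHL2a (97.2, 98.3 and 99.5 CPM), with a log2FC of -0.69 (edgeR adjusted p = 3.5e-11) and -0.66 (edgeR adjusted p = 1.1e-10). IRS2 stood at 29.3, 28.4 and 27.3 CPM in siKLF5b and at 43.5, 43.9 and 44.7 CPM in siNC1, a log2FC of -0.64 (edgeR adjusted p = 1.3e-08). IGF2R had a log2FC of -0.50 in the same comparison (edgeR adjusted p = 1.4e-07). Other adaptors were higher in siKLF5b than in siNC1, among them GRB10 (43.8 against 34.1 CPM) and PTPN11 (221 against 160.1 CPM). All of these are under the fold-change threshold.

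**Figure D5:**
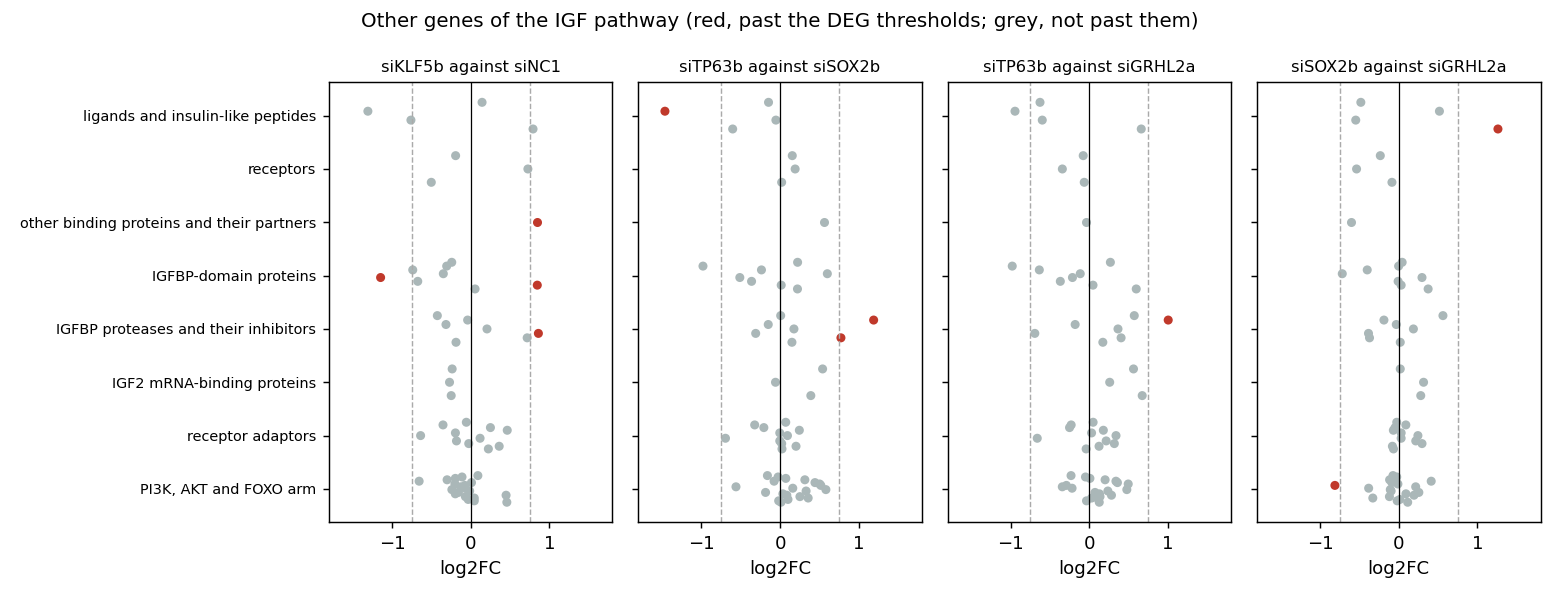
log2FC (x axis) of the 57 tested genes of the IGF pathway outside the 9 members, by list (y axis), in the 4 comparisons within a column set, with dashed lines at an absolute log2FC of 0.75. Red points are past the thresholds on log2FC and adjusted p, 4, 3, 1 and 2 genes from left to right, and grey points are not.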

How the data were processed

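Raw counts of 61544 genes in 15 libraries were deposited by the authors, who aligned reads to hg38 with HISAT2 2.2.1 and counted uniquely aligned reads with featureCounts 2.0.1 on Gencode release 40. Whether reads or fragments were counted is not given in the sources used here. All count columns were matched to labels, and 0 were left over. In R 4.3.3, edgeR 4.0.16 with TMM factors, filterByExpr and one mean per group was fitted to all 15 libraries, since the quasi-likelihood test suits counts. DESeq2, the tool of the study, was an alternative, here in version 1.42.0, with RLE size factors, other low-count filters, a replicate block, single column sets, halved counts and each library left out. The steps were tested on simulated data. Replicates differed by more than sampling noise (chi-square per gene 2.33 to 10.8). The members and lists were chosen with earlier results of these data known. The genes named by rule are the 9 members, the targeted genes, up to 3 genes of each list past the thresholds per comparison, and the 5 genes most like IGFL1. Cell type markers and overlapping genes are named too. IGF2, INS, IGFBP1, IGFLR1, STC2, IRS1, IRS2, IGF2R, GRB10 and PTPN11 are named outside that rule. Gene structures came from Gencode release 44.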

Additional observations from a re-analysis of the deposited data

How the results depend on the processing

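With at least 10 counts in every library, which removes IGFL1 and IGFL2, 0 members were past the thresholds in siKLF5b against siNC1, 2 in siTP63b against siSOX2b and 0 in siTP63b against siGRHL2a, 0 pathway genes were lower in siTP63b against siSOX2b and 0 higher in siSOX2b against siGRHL2a, and DESeq2 gave the same 0 and 0 for the pathway. The same filter left 470 genes lower and 620 higher of all genes in siTP63b against siSOX2b (709 and 973 before), 355 higher in siTP63b against siGRHL2a (547 before), and 360 lower and 154 higher in siSOX2b against siGRHL2a (569 and 264 before). In siKLF5b against siNC1, 2 members were past the thresholds with the replicate block, with the libraries of a single column set, or with halved counts in the other set, as IGFBP5 then passed. Replicate numbers did not pair the samples, with correlations of same-numbered deviations from -0.218 to 0.108, and the block changed no other count by over 1.5 times. When each library was left out in turn, members past the thresholds were 1 to 2 in siKLF5b against siNC1 and 1 to 3 in siTP63b against siGRHL2a. The log2FC of IGFL1 in siKLF5b against siNC1 ran from -3.12 to -2.77. Pathway genes lower were 0 to 2 in siKLF5b against siNC1, 0 to 1 in siTP63b against siSOX2b, 0 to 1 in siTP63b against siGRHL2a and 0 to 1 in siSOX2b against siGRHL2a, and those higher were 1 to 2 in siTP63b against siSOX2b and 0 to 1 in siSOX2b against siGRHL2a. Without subtraction of the set means, r with IGFL1 was -0.194 for ATP1B1 and -0.274 for BMP7. RLE size factors moved the median of all genes by at most 0.0284 on the log2 scale and changed no call of a member. Except where named, the cause was not tested. Counts of IGFL1 in siKLF5b and of IGFL2 limit what their differences can show.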
